A study of Mus musculus with 15 samples.

Results

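The miR-29 family is a group of small regulatory RNAs cut from 4 hairpins on 2 chromosomes of the mouse genome. Its members were chosen by name, as every listed arm called miR-29a, miR-29b or miR-29c (mmu-miR-29a-3p and so on in the mouse nomenclature), and these were 5 of the 396 miRNAs listed. They comprised 3 arms from the 3′ side of the hairpins (miR-29a-3p, miR-29b-3p and miR-29c-3p) and 2 arms from the 5′ side (miR-29b-2-5p and miR-29c-5p). Small RNA was sequenced from midbrain of C57BL/6 mice at 6 months of age. One group carried the A30P form of alpha-synuclein, a mutation known from familial Parkinson's disease, with the genotype given as A30P alpha-synuclein +/+ (7 libraries, numbered 1 to 4 and 6 to 8). The other group was wild type (WT, 8 libraries). The sources used here do not give the promoter that drives the A30P protein or the number of founder lines. The labels do not say that each library came from a separate animal, so the p-values measure the spread between these libraries, which may be technical.

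As background, a miRNA pairs through its seed, the bases next to its 5′ end, with sites in messenger RNAs and lowers their stability and translation. miR-29 is best known for lowering messages of collagens and other matrix proteins, of the DNA methyltransferases DNMT3A and DNMT3B, and of BACE1, the protease that starts amyloid-beta production. In mouse brain it is known to accumulate as neurons mature, and in mouse neurons it represses several pro-apoptotic BH3-only genes. The 3p arm is the strand mainly loaded into Argonaute, and the 5p arm is its passenger.

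The mature sequences below show what the family shares and where its members part, with the seed (bases 2 to 8) in capitals. They were taken from RefSeq for the GRCm38.p6 assembly, which matched all 5 listed arms by name.
miR-29a-3p: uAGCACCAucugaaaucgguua
miR-29b-3p: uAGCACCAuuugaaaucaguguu
miR-29c-3p: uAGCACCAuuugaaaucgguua
miR-29b-2-5p: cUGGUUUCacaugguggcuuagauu
miR-29c-5p: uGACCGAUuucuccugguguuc

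The 3 arms from the 3′ side carried the same seed, and no other miRNA did, either among the listed miRNAs with a RefSeq sequence or among 1679 RefSeq mature mouse names. With positions counted from the 5′ end, miR-29a-3p differed from miR-29c-3p by the single substitution C10U. miR-29a-3p differed from miR-29b-3p by C10U, G18A, U21G and A22U, and miR-29b-3p was 1 base longer. The last 6 bases of miR-29b-3p, AGUGUU, form the end that is known from human cells to direct miR-29b to the nucleus. The passenger arms had seeds of their own. The sources used here do not say how reads were divided between arms that differ by a single base.

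In GRCm38.p6 the hairpins lay in 2 pairs. Mir29a (chr6:31062660-31062747) and Mir29b-1 (chr6:31063023-31063093) stood on the minus strand of chromosome 6 with 275 bases between them. Mir29b-1 overlapped the long noncoding RNA gene Gm27019 by 2 bases, and no other annotated gene covered the pair. Mir29b-2 (chr1:195037040-195037120) and Mir29c (chr1:195037547-195037634) stood on the plus strand of chromosome 1 with 426 bases between them. Both lay within an exon of the noncoding transcript A330023F24Rik on the same strand, and opposite the 3′ untranslated exon of Cd46. miR-29b-3p is encoded identically in Mir29b-1 and Mir29b-2, so its reads could not be assigned to either pair. The hairpin of Mir29b-1 is shown because it is the copy whose 5p arm was not among the listed miRNAs, with both mature arms in capitals.
Mir29b-1: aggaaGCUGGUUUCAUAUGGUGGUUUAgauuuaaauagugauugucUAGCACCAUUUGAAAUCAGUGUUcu

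The libraries differed in depth along with genotype, and this touches every result on the family. The listed miRNAs held 21731 to 3500431 reads in an A30P library (median 92827) and 724813 to 9762286 in a WT library (median 5081436.5). One read stood for 0.174 to 56.4 normalized counts in A30P libraries and for 0.0848 to 0.806 in WT libraries. Between 122 and 395 miRNAs had reads in an A30P library, against 375 to 396 in a WT library. miR-148a-3p and miR-151-3p had a joint share of 13.9% to 80.1% in A30P libraries and of 0.842% to 2.51% in WT libraries. A30P replicates 1, 2, 4 and 7 held under 100000 reads each. Neuronal miRNAs (miR-9-5p, miR-128-3p, miR-124-3p and miR-137-3p) took 0.433% to 8.28% of reads in A30P and 8.72% to 20.04% in WT, and the parts that depth, the high miRNAs and cell content played in the results were not tested.

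miR-29a-3p, the family's main product and the 36th most abundant of the 396 miRNAs in WT, was much lower in A30P midbrain. Its normalized counts, which are reads divided by the authors' size factor for each library, were 87.7, 181, 143, 226, 497, 0 and 136 in A30P replicates 1, 2, 3, 4, 6, 7 and 8, and 656, 4832, 4565, 6736, 4146, 2875, 1759 and 427 in WT replicates 1 to 8. The groups overlapped only in A30P replicate 6, which stood above WT replicate 8. A30P averaged 181 ± 156 (SD, n = 7) and WT averaged 3249 ± 2212 (SD, n = 8), so A30P was 17.9-fold lower. By limma on log2(value + 1), which was run on all 396 miRNAs with Benjamini-Hochberg adjustment, the log2 fold change was -4.75 (SE 1.02, adjusted p = 0.000399). In bulk tissue, fewer cells of a type and less of the RNA per cell cannot be told apart.

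The read counts show how much evidence stands behind those values. The A30P libraries held 5, 9, 67, 4, 2853, 0 and 53 reads of miR-29a-3p, and the WT libraries held 813 to 57988 (median 28369). As a share of listed reads, which does not rest on the size factors, miR-29a-3p took 0% to 0.0815% in A30P (median 0.0120%) and 0.103% to 0.812% in WT (median 0.462%). The highest A30P share, in replicate 6, had a Wilson 95% interval of 0.0786% to 0.0845%, and the lowest WT share, in replicate 8, had one of 0.0975% to 0.108%. By share, therefore, every A30P library lay below every WT library. How many other miRNAs did so was not counted, and 71% of the 396 were called lower in A30P by limma. In A30P replicate 7, 0 of 27348 reads allows a share of up to 0.0110%. Intervals and limits of this kind cover counting error only.

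The difference in mean log2 share of miR-29a-3p was -4.72 with 0.5 reads added to each count (exact permutation test over 6435 splits, two-sided, p = 0.000311, the smallest those splits allow, and 0.00109 adjusted over 7 tests). Without the 4 A30P libraries under 100000 reads, the fold change by limma was -3.44 (SE 0.81, adjusted p = 0.00289). With miR-148a-3p and miR-151-3p left out of the total, the share difference was -3.18 (exact permutation test, p = 0.000311, adjusted over fewer tests to 0.000622).

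miR-29b-3p, made by both hairpin pairs, was lower in A30P on average, but the groups overlapped widely. Its normalized counts were 17.5, 20.1, 10.7, 0, 51.2, 102 and 54.1 in A30P replicates 1, 2, 3, 4, 6, 7 and 8, and 16.9, 320, 362, 572, 301, 134, 81.4 and 9.72 in WT replicates 1 to 8. WT replicates 1 and 8 sat among the A30P values, and the other WT libraries exceeded all A30P values except that WT replicate 7 was below A30P replicate 7. That A30P value of 102 rested on 2 reads, and replicates 1 and 2 rested on 1 read each. A30P averaged 36.6 ± 35.4 (SD, n = 7) and WT averaged 225 ± 197 (SD, n = 8), with a limma log2 fold change of -2.57 (SE 1.06, adjusted p = 0.0329). The call was lost when A30P replicate 3 or 4 or WT replicate 2, 3, 4 or 5 was left out (adjusted p = 0.0581 to 0.0768), and in edgeR on recovered reads with TMM scaling, where the fold change was -1.09 on the log2 scale (adjusted p = 0.139). The log2 share differed by -2.36 (exact permutation test, adjusted p = 0.0196), and by -0.82 (exact permutation test, adjusted p = 0.307) with miR-148a-3p and miR-151-3p out of the total.

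miR-29c-3p, the chromosome 1 relative of miR-29a-3p, was rare in both genotypes. It was listed at 2.13, 8.88 and 2.57 normalized counts in A30P replicates 3, 6 and 8 (1, 51 and 1 reads) and at 0 in the other A30P libraries. In WT replicates 1 to 8 it had 2.42, 58.6, 67.1, 104, 54.3, 23.5, 13.3 and 1.25 normalized counts (3 to 897 reads). WT replicates 2 to 7 exceeded every A30P value, and WT replicates 1 and 8 fell between the A30P values. The A30P mean was 1.94 ± 3.26 (SD, n = 7) and the WT mean 40.6 ± 36.4 (SD, n = 8), and the log2 fold change by limma was -3.52 (SE 0.84, adjusted p = 0.00101).

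Depth sets a limit on that fall. In A30P replicates 1, 2, 4 and 7, 3 reads would have given 52.6 to 169 normalized counts, which is above the WT mean of miR-29c-3p, so a listing at 0 there does not separate these libraries from WT levels. Without those 4 libraries the log2 fold change was -2.22 (limma, adjusted p = 0.0915). edgeR with TMM scaling gave -1.54 (adjusted p = 0.0698).

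Of the passenger arms, miR-29b-2-5p had reads in every WT library and in 1 A30P library. It was seen in A30P only in replicate 6, at 0.697 normalized counts from 4 reads. In WT replicates 1 to 8 it had 7.26, 17.4, 20.01, 30.3, 16.3, 13.3, 10.1 and 2.51 normalized counts (8 to 261 reads). The most deeply sequenced A30P library thus lay below the lowest WT library. A30P replicates 3 and 8 had no reads, but 3 reads there would have given 6.39 and 7.72 normalized counts. Their listing at 0 therefore does not separate them from WT replicate 8, at 2.51. The A30P mean was 0.0995 ± 0.263 (SD, n = 7) and the WT mean 14.7 ± 8.52 (SD, n = 8). The log2 fold change was -3.62 by limma (SE 0.44, adjusted p = 1.31e-06) and -3.48 (adjusted p = 0.000482) without the 4 shallow A30P libraries, whose listing at 0 does not separate them from WT levels, since 3 reads would have given 52.6 to 169 normalized counts. The call was lost in limma-voom, at -0.42 on the log2 scale (adjusted p = 0.645).

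miR-29c-5p had no direction that held across tests. It was listed at 13.4 normalized counts (77 reads) in A30P replicate 6, at 2.57 (1 read) in A30P replicate 8 and at 0 in the other A30P libraries. In WT replicates 1 to 8 it had 0.806, 9.84, 8.11, 18.8, 13.1, 7.04, 5.39 and 2.19 normalized counts (1 to 162 reads). A30P replicate 6 exceeded 7 of the 8 WT libraries. The A30P mean was 2.28 ± 5.00 (SD, n = 7) and the WT mean 8.17 ± 5.85 (SD, n = 8). Limma gave a log2 fold change of -2.06 (SE 0.63, adjusted p = 0.00626), while edgeR with TMM scaling gave 0.88 (adjusted p = 0.139) and limma-voom with TMM scaling gave 1.53 (adjusted p = 0.0219).

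**Figure D1:**
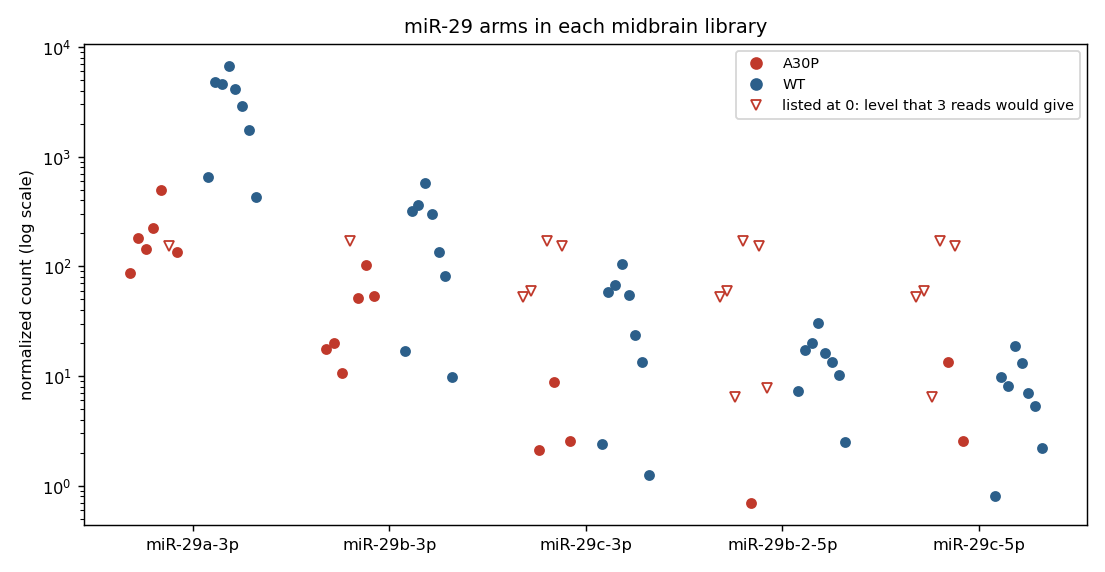
Normalized counts (vertical axis, log scale) of the 5 miR-29 arms (horizontal axis) in each A30P library (red, left) and each WT library (blue, right), in the order of replicate numbers. Open triangles stand at the level that 3 reads would give in A30P libraries where an arm was listed at 0, and for miR-29c-3p and both 5p arms several of them lie above most WT points.

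Across the family, all 5 arms were called lower in A30P by limma, where 71% of the 396 miRNAs were called lower and 8.33% higher. The median log2 fold change over all 396 was -2.57, so that of miR-29b-3p equalled the median miRNA and that of miR-29c-5p was smaller in size. In edgeR with TMM scaling, 2 of the 5 arms (miR-29a-3p and miR-29b-2-5p) were lower and 0 higher, against 35.5% lower and 19.5% higher among 318 miRNAs tested. There the log2 fold change was -2.67 (adjusted p = 0.000194) for miR-29a-3p and -3.56 (adjusted p = 0.000194) for miR-29b-2-5p, beside a median of -0.75. The same 2 arms were called lower by limma without the 4 A30P libraries under 100000 reads, where 52.3% of miRNAs were lower and 7.83% higher.

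In the authors' deposited table, too, these 2 arms passed, against 34.1% of miRNAs lower and 9.85% higher. The authors' deposited table gave miR-29a-3p a log2 fold change of -1.46 (adjusted p = 0.0425) and miR-29b-2-5p one of -3.16 (adjusted p = 0.000469). For miR-29b-3p, miR-29c-3p and miR-29c-5p the authors' deposited table had -0.26, -0.41 and 1.40 (adjusted p = 0.840, 0.725 and 0.0784). limma-voom called only miR-29a-3p lower (log2 fold change -2.80, adjusted p = 9.66e-05) and only miR-29c-5p higher, where 27.7% of 318 miRNAs were lower and 24.2% higher. A lower miR-29a-3p was thus called by each of these tests, with log2 fold changes between -1.46 and -4.75. Scaling moved the background itself, since the median log2 fold change by limma was -1.84 after TMM scaling and -2.92 when values were scaled to each library's listed reads.

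**Figure D2:**
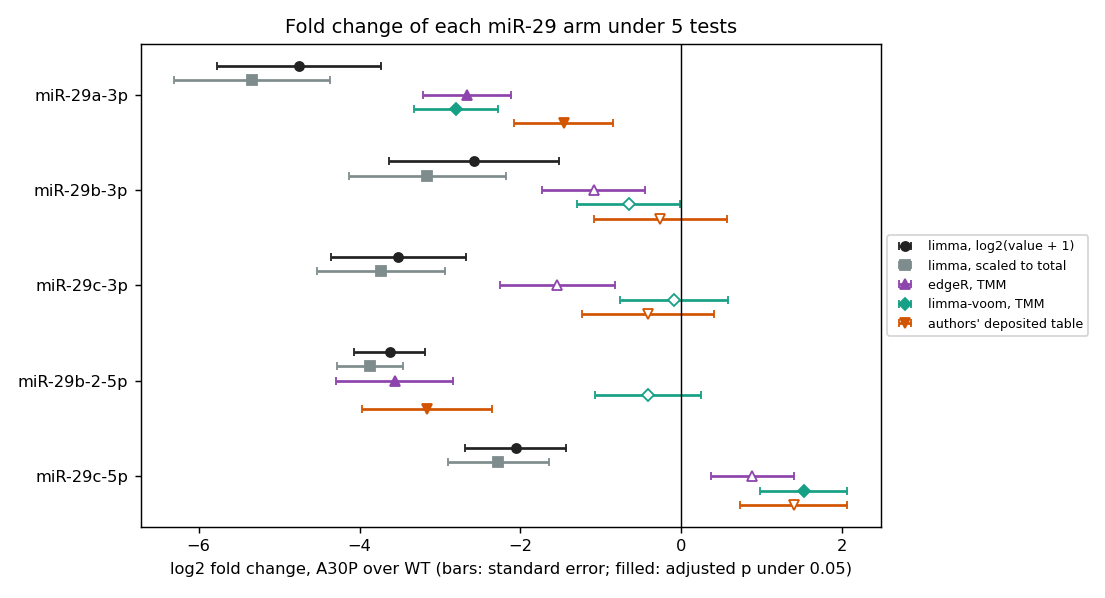
Log2 fold change, A30P over WT (horizontal axis), of each miR-29 arm under 5 tests, with bars of 1 standard error and filled symbols where the adjusted p was under 0.05. miR-29a-3p lies left of 0 with filled symbols throughout, from -1.46 in the authors' deposited table to -5.33 when scaled to listed reads, while miR-29c-5p falls on both sides of 0.

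Ratios of arms within a library do not depend on how libraries are scaled, and they were used to set the hairpin pairs against each other. miR-29a-3p made up 90.3% to 96.5% of the family's reads in the WT libraries. In A30P it made up 87.0% of 3279 family reads in replicate 6, 91.8% of 73 in replicate 3 and 69.7% of 76 in replicate 8, and the other A30P libraries held 2 to 10 family reads. The family as a whole took 0.00731% to 0.0937% of listed reads in A30P and 0.107% to 0.899% in WT. With miR-148a-3p and miR-151-3p out of the total, the highest A30P share of miR-29a-3p was 0.0946% and the lowest WT share was 0.105%.

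In A30P replicates 6 and 8, miR-29b-3p was high relative to miR-29a-3p. The ratio of their reads was 0.0746, 0.103, 0.111 and 0.396 in A30P replicates 3, 6, 2 and 8, the libraries with at least 10 reads of both arms together, and 0.0227 to 0.0849 in the WT libraries (median 0.0564). A30P replicates 2, 6 and 8 exceeded all WT libraries, and replicate 3, with 5 reads of miR-29b-3p, lay within the WT range. Replicate 2 held 1 read of miR-29b-3p against 9 of miR-29a-3p. Its Wilson 95% interval, 1.79% to 40.4% of the reads of both arms, covers the WT range of 2.22% to 7.83%. In A30P replicate 6 miR-29b-3p was 9.34% of the reads of both arms (Wilson 95% interval 8.37% to 10.4%), and in WT replicate 4, the highest of its group, it was 7.83% (7.62% to 8.04%). Over all 15 libraries, with 0.5 reads added to each arm, the mean log2 ratio was -1.94 in A30P and -4.31 in WT. The difference was 2.36 (exact permutation test, adjusted p = 0.00145). A30P replicates 4 and 7 lacked reads of 1 arm, and the added reads set them at -3.17 and 2.32. Replicate 1 held 1 and 5 reads and stood at -1.87. These replicates lay above the highest WT value of -3.56, so the difference over all libraries does not by itself test the balance. Over the 4 A30P libraries with at least 10 reads the difference was 1.59 (exact permutation test, p = 0.00808, adjusted over fewer tests to 0.0242). Over the 3 A30P libraries above 100000 reads, which leave out replicate 2, the difference was 1.57 (exact permutation test, p = 0.0242, adjusted over 7 tests to 0.0566).

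The chromosome 6 product could be set against the chromosome 1 product in few A30P libraries. The ratio of miR-29a-3p to miR-29c-3p reads was 67.0, 55.9 and 53.0 in A30P replicates 3, 6 and 8, of which 3 and 8 held 1 read of miR-29c-3p, and 64.6 to 341 in the WT libraries (median 102). A30P replicates 6 and 8 lay below every WT library, and replicate 3 lay within the lower end of the WT range. With 0.5 reads added, these 3 libraries differed from WT by -1.37 on the log2 scale (exact permutation test, p = 0.0121, adjusted p = 0.0424). With none added they differed by -1.03 (exact permutation test, p = 0.0242, adjusted over fewer tests to 0.0485). Replicate 6 held 51 of their 53 reads of miR-29c-3p. Over all 15 libraries the difference was -2.95, which does not test the balance. A30P replicates 1, 2, 4 and 7 held 5, 9, 4 and 0 reads of miR-29a-3p and none of miR-29c-3p, and with the added reads their log2 ratio was at most 4.25, while the lowest WT value was 6.01.

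The ratio of miR-29b-3p to miR-29c-3p varied less across WT libraries, with an SD of 0.128 on the log2 scale beside 0.835 for miR-29a-3p to miR-29c-3p. In WT it was 5.40 to 7.75 reads of miR-29b-3p for each read of miR-29c-3p (median 5.62). In A30P replicate 6, with 294 and 51 reads, it was 5.76, inside the WT range, while replicates 3 and 8 gave 5.00 and 21.0 from 1 read of miR-29c-3p each. Over the A30P libraries above 100000 reads the mean log2 ratio differed by 0.20 (exact permutation test, adjusted p = 0.485). Over all 15 libraries it differed by -0.58 (adjusted p = 0.246), and by -0.90 without A30P replicate 8, where it passed (adjusted p = 0.00699), but both values include 4 A30P libraries with no miR-29c-3p reads.

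Strand balance could be followed for Mir29c and, in part, for Mir29b-2. In A30P replicate 6 the 3p arm of miR-29c was 39.8% of 3p and 5p reads (51 against 77 reads, Wilson 95% interval 31.8% to 48.5%), and replicates 3 and 8 held only 1 and 2 such reads. In WT it was 36.4% to 89.2%, with the lowest value in replicate 8 (4 against 7 reads) and 71.2% to 89.2% in replicates 2 to 7. In the deepest A30P library the passenger arm thus outnumbered the main arm, as it did in the WT library with the fewest miR-29a-3p reads per listed read. Without the 4 shallow A30P libraries the mean log2 ratio differed by -1.37 (exact permutation test, adjusted p = 0.170). With them the difference was -1.56, but neither arm had reads in A30P replicates 1, 2, 4 and 7, where the added reads set the log2 ratio to 0, so that value does not test the balance. For miR-29b, whose 3p arm comes from both pairs, A30P replicate 6 had 73.5 reads of the 3p arm for each read of miR-29b-2-5p, and the WT libraries had 2.33 to 18.9. The mean log2 ratio of miR-29b-3p to miR-29b-2-5p differed by -0.36 over all libraries (exact permutation test, adjusted p = 0.689), where 6 of the 7 A30P values rested on 0 reads of miR-29b-2-5p.

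**Figure D3:**
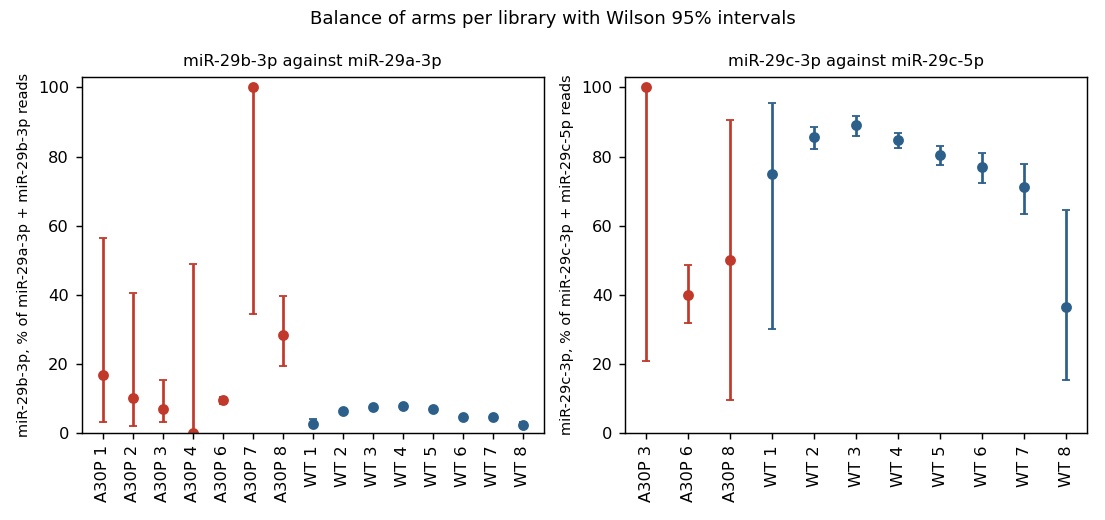
Share of miR-29b-3p in the reads of miR-29b-3p and miR-29a-3p (left, vertical axis in %) and of miR-29c-3p in those of miR-29c-3p and miR-29c-5p (right, vertical axis in %) for each A30P library (red) and WT library (blue), with Wilson 95% intervals. A30P replicate 6 stands at 9.34% on the left, above the WT libraries at 2.22% to 7.83%, and at 39.8% on the right, where A30P libraries without reads of either arm are not drawn.

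Within WT, the arms of the family varied together across libraries. Over the 8 WT libraries the log2 share of miR-29b-3p followed that of miR-29a-3p with Pearson's r = 0.995 (permutation p = 9.92e-05, adjusted p = 0.000198) and Spearman's rho = 0.976 (permutation p = 0.000397, adjusted p = 0.000794). For miR-29c-3p the values were r = 0.995 (permutation p = 9.92e-05, adjusted p = 0.000198) and rho = 0.976 (permutation p = 0.000397, adjusted p = 0.000794). The passenger arms followed less closely, with r = 0.920 and rho = 0.952 for miR-29b-2-5p (permutation, adjusted p = 0.000331 and 0.00152) and r = 0.864 and rho = 0.857 for miR-29c-5p (permutation, adjusted p = 0.00427 and 0.0107). Without WT replicates 1 and 8, the libraries farthest from the median, r was 0.969, 0.969, 0.897 and 0.782 in the same order of arms (n = 6). These 4 relations share their libraries and their x axis. Such closeness was not confined to the family. On log2 normalized counts over WT, miR-9-3p had the highest r with miR-29a-3p of 306 miRNAs (0.998), and miR-29b-2-5p ranked 75 (0.961).

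The arms did not follow in proportion. For each doubling of the miR-29a-3p share across WT libraries, the log2 share of miR-29b-3p moved by 1.63, that of miR-29c-3p by 1.80, that of miR-29b-2-5p by 0.63 and that of miR-29c-5p by 0.95. The WT libraries low in miR-29a-3p were therefore lower still in miR-29b-3p and miR-29c-3p. WT replicates 1 and 8, with the lowest miR-29a-3p shares, also had the fewest listed reads of their group, 724813 and 1326236. A30P replicates 6 and 8 lay off this WT line, since they had less miR-29a-3p than any WT library and yet more miR-29b-3p, at 0.00840% and 0.00476%, than WT replicates 1 and 8, at 0.00290% and 0.00234%. A30P replicates 1, 2 and 3 were below every WT library in both arms, from 1, 1 and 5 reads of miR-29b-3p. Their ratios of miR-29b-3p to miR-29a-3p reads were 0.2, 0.111 and 0.0746, above 0.0258 and 0.0227 in WT replicates 1 and 8. They too therefore stood above the downward continuation of the WT line. Replicates 4 and 7 each lacked reads of 1 arm.

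**Figure D4:**
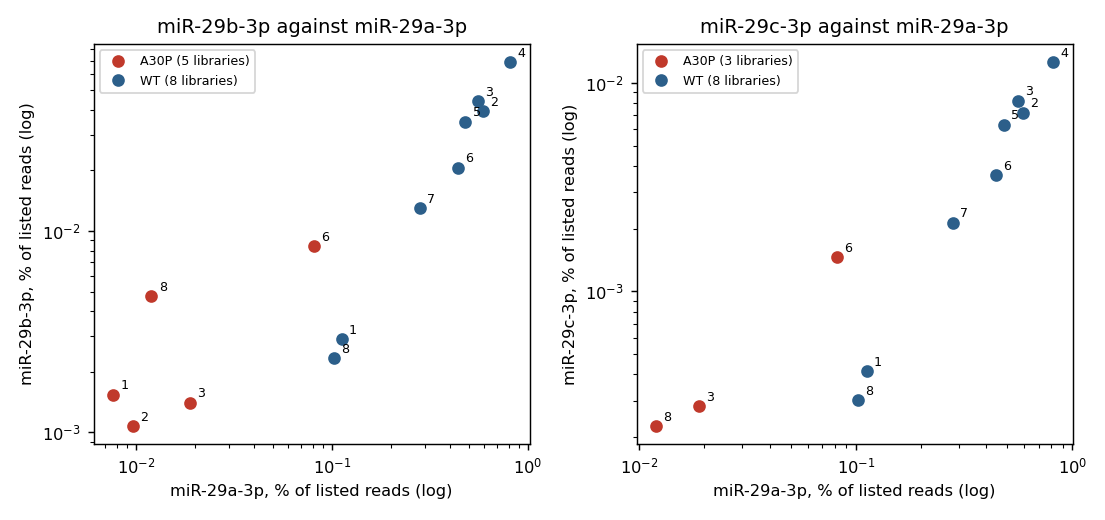
Share of listed reads (in %, log scales) of miR-29b-3p (left) and miR-29c-3p (right) against that of miR-29a-3p, for A30P libraries (red) and WT libraries (blue) with reads of both arms, numbered by replicate. The WT points form a steep line with replicates 1 and 8 at its lower end, and the A30P points lie to the left of that line or of its downward continuation.

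The main arms were among the miRNAs that varied most between WT libraries. The SD of log2(value + 1) over the 8 WT libraries was 2.12 for miR-29b-3p, 2.07 for miR-29c-3p, 1.45 for miR-29a-3p and 0.97 for miR-29b-2-5p, which ranked them 11, 13, 50 and 127 of 307 miRNAs with a WT mean of at least 10, whose median SD was 0.853. The main arms are also poor in G and C, at 34.8% for miR-29b-3p, 36.4% for miR-29c-3p and 40.9% for miR-29a-3p, while miR-29b-2-5p had 44.0%, miR-29c-5p had 50.0%, and 347 listed miRNAs with a RefSeq sequence had a median of 47.8%. Across 268 miRNAs, G and C content and SD over WT were related with r = -0.52. This correlation is across miRNAs that share the same libraries, so it is given as a description. Across 347 miRNAs, G and C content and the limma log2 fold change of A30P over WT were related with r = 0.13. Of 88 miRNAs with at most 40.9% G and C, 79.5% were lower in A30P by limma, and of 259 above that level, 68.0% were.

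**Figure D5:**
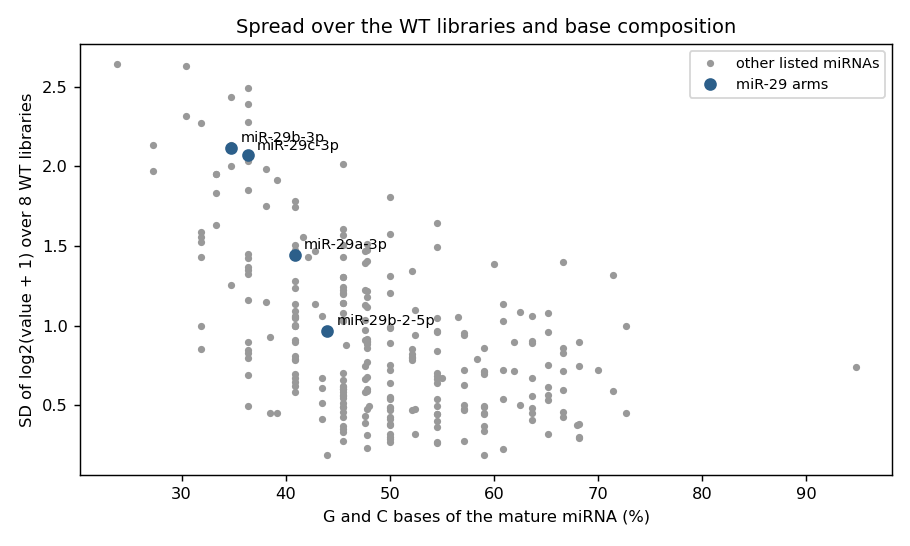
SD of log2(value + 1) over the 8 WT libraries (vertical axis) against G and C bases of the mature sequence (horizontal axis, in %) for miRNAs with a WT mean of at least 10. The miR-29 arms (blue) run from miR-29b-3p at 34.8% and an SD of 2.12 to miR-29b-2-5p at 44.0% and an SD of 0.97.

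The miRNAs whose pattern was most like that of miR-29a-3p were named by Pearson's r of deviations from the genotype mean over the 15 libraries, among the 92 miRNAs with reads in every library. The highest were miR-543-3p (r = 0.81), miR-383-5p (0.78), miR-132-5p (0.72), let-7g-5p (0.69) and miR-1839-5p (0.67). The lowest were miR-320-3p (-0.81), miR-423-5p (-0.76) and miR-125b-1-3p (-0.75). The points share depth and library composition, so these values describe likeness of pattern only. Over the 8 WT libraries alone, a measure chosen after the data were seen, the highest of 306 miRNAs were miR-9-3p (0.998), miR-29b-3p (0.998), miR-487b-3p (0.997), miR-29c-3p (0.996) and miR-369-3p (0.996), and the lowest was miR-664-5p (-0.986). Both other main arms of the family were thus among the 5 miRNAs closest to miR-29a-3p in WT.

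Other miRNAs with reported targets in the pathways of miR-29 were read from 3 lists. By limma 71% of all listed miRNAs fell and 8.33% rose, and in edgeR with TMM scaling 35.5% fell and 19.5% rose, and the counts below are to be read against these shares. Of 10 miRNAs reported to target DNA or histone methylation enzymes, 2 rose, 5 fell and 3 did not pass by limma, and 3 rose and 3 fell in edgeR with TMM scaling. miR-148a-3p, a known repressor of DNMT1, averaged 461355 ± 259505 normalized counts in A30P and 4961 ± 2445 in WT (limma log2 fold change 6.44, adjusted p = 4.1e-09). miR-143-3p, with DNMT3A as a reported target, averaged 10046 ± 5859 in A30P and 3126 ± 1612 in WT (limma log2 fold change 1.60, adjusted p = 0.00132). miR-26a-5p, with EZH2 as a reported target, averaged 2207 ± 2481 in A30P and 39027 ± 16193 in WT (limma log2 fold change -4.47, adjusted p = 2.42e-07). The list therefore moved in both directions, with a median of -2.58 beside -2.57 for all miRNAs.

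Of 9 reported regulators of BACE1, 0 rose and 9 fell by limma (71% of all miRNAs fell), and 7 fell in edgeR with TMM scaling (35.5% of all tested). Their median log2 fold change was -3.84 by limma and -2.13 in edgeR, beside -2.57 and -0.75 over all miRNAs tested. miR-9-5p averaged 12435 ± 12390 normalized counts in A30P and 60493 ± 36673 in WT (limma log2 fold change -2.40, adjusted p = 0.000793, and edgeR adjusted p = 0.0942). miR-328-3p averaged 403 ± 196 in A30P and 9006 ± 3281 in WT (limma log2 fold change -4.52, adjusted p = 4.18e-09). miR-124-3p, which also marks neurons, averaged 119 ± 111 in A30P and 1405 ± 654 in WT (limma log2 fold change -4.47, adjusted p = 0.000283). Of 8 listed miRNAs linked to fibrosis and matrix, 1 rose, 6 fell and 1 did not pass by limma, and 1 rose and 4 fell among 7 tested in edgeR, beside 71% and 35.5% of all miRNAs falling. The median log2 fold change of this list was -3.34 by limma and -2.10 in edgeR. miR-30c-5p (log2 fold change -4.46, adjusted p = 5.2e-07) and miR-21a-5p (-4.38, adjusted p = 0.00131) fell by limma, and the member that rose was miR-143-3p, which is also in the first list.

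Markers of the cell types that midbrain can hold were read beside the family, and here too 71% of all miRNAs fell by limma and 35.5% in edgeR. By limma, 4 of 4 listed neuron miRNAs fell, as did 2 of 3 for oligodendrocytes and 1 of 1 for microglia (miR-146a-5p). Of 2 astrocyte miRNAs 1 rose (miR-143-3p) and 1 fell (miR-21a-5p), and of 3 for endothelium and mural cells 2 fell and 1 rose. The one that rose there was again miR-143-3p, which is in both lists, so its rise cannot be assigned to either cell type. Of 3 red blood cell miRNAs, 1 rose (miR-451a), 1 fell and 1 did not pass, and of 2 for choroid plexus 1 fell. In edgeR with TMM scaling, 2 of 3 neuron miRNAs tested, 2 of 3 for oligodendrocytes and miR-146a-5p fell, and 0 of 2 for choroid plexus and 0 of 3 for endothelium and mural cells did. Of 2 astrocyte miRNAs 1 fell and 1 rose, and of 2 for red blood cells 0 fell and 1 rose (miR-451a). miR-143-3p was the astrocyte miRNA that rose and also the 1 of 3 that rose for endothelium and mural cells. Among all miRNAs tested in edgeR 19.5% rose. Among the A30P libraries, miR-124-3p had reads in 6, miR-146a-5p in 5, miR-338-3p in 3 and miR-137-3p in 2 of 7. In summed level, oligodendrocyte miRNAs took 0.106% to 0.911% of reads in A30P and 0.673% to 1.31% in WT, and astrocyte miRNAs 0.345% to 1.68% in A30P and 0.368% to 1.27% in WT. Of the 2 astrocyte miRNAs, miR-143-3p averaged 10046 normalized counts in A30P and 3126 in WT, and miR-21a-5p 120 and 2108. The astrocyte level in A30P was thus mostly miR-143-3p on average. Those of endothelium and mural cells took 0.377% to 1.88% in A30P and 0.702% to 2.45% in WT, and those of red blood cells 0.0313% to 0.176% in A30P and 0.0368% to 0.369% in WT. The single microglial marker took 0% to 0.0252% in A30P and 0.0262% to 0.0871% in WT, and those of choroid plexus 0.00460% to 0.172% in A30P and 0.180% to 0.551% in WT. These shares are of all listed reads, and miR-148a-3p and miR-151-3p together took 13.9% to 80.1% of those in A30P. In WT they took 0.842% to 2.51%. How much of the marker differences this accounts for was not tested, nor was the part of cell content in the miR-29 result.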

How the data were processed

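Midbrain small RNA of 7 A30P and 8 WT samples was profiled. RNA was extracted with Trizol, and the kit named is TruSeq small RNA, per the labels' protocols, while the library columns begin with NEB, per the file headers, so the kit is uncertain. DESeq and the mm9 build are named per the submitters' processing notes, and the sources used here do not give the aligner, counter or annotation. Columns named CT were read as WT. A letter in the column names, D in every A30P column and C in every WT column per the file headers, has no stated meaning, and what it marks cannot be told apart from genotype.

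The signal deposited per library is a read count divided by a size factor, as computed by the authors. Whole reads were recovered as multiples of the smallest step, and 100% were whole (within 0.0001). The log2 fold changes, their standard errors and the p-values deposited by the authors are printed where their table is named. The group means that the authors deposited have the unit score, as the scale is unstated, and were not used.

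The main test was limma 3.58.1 (trend, robust) on log2(value + 1), with Benjamini-Hochberg adjustment over the 396 miRNAs, all of which had a mean of 1 or more in A30P or WT. This scale understates changes of low miRNAs, and a 0 in a shallow library pulls a fold change down. Count tests on the recovered reads were edgeR 4.0.16, limma-voom and DESeq2 1.42.0 (R 4.3.3), with TMM or the deposited size factors. Shares and ratios were compared by exact permutation, two-sided, with 0.5 reads added to each count in the main setting. Benjamini-Hochberg adjustment was over the tests of each setting, which were 7 in the main setting and fewer in some others. Adjusted p-values from settings with different numbers of tests are not directly comparable. The plan was to test shares only of arms with reads in every library; no arm had them, so the 2 most abundant were tested. Python 3.11.15, numpy 2.4.6, pandas 2.3.3, scipy 1.17.1 and matplotlib 3.10.9 were used, and the procedures were tested on simulated data.

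Every listed miR-29 arm is described. From each other list the 3 members with the highest WT mean and those moving against most of their list were to be named, and others named were chosen after their values were seen. Members and lists were chosen with earlier results of these data known. Other scalings, filters, pseudocounts, tests and subsets of libraries were tried. Depth here is the reads of listed miRNAs, since library totals were not used. Replicate numbers were not taken to pair the samples in the main tests.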

Additional observations from a re-analysis of the deposited data

Results flagged for a closer look

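Dixon's criterion was applied to 30 sets of values, some from the A30P libraries and some from the WT libraries. In 9 of them 1 library stood apart from the rest of its group, and all 9 were A30P sets. Chance meets the criterion in about 1 in 20 sets of independent, normally distributed values. These sets share libraries and several hold many values of 0, so their number cannot be read against that rate. Replicate 6, the deepest A30P library with 3500431 listed reads, was the highest in 7 of the 9. Its miR-29a-3p share was 0.0815% of listed reads. For miR-29c-3p it had 8.88 normalized counts and a share of 0.00146%, for miR-29b-2-5p 0.697 normalized counts and 0.000114%, and for miR-29c-5p 13.4 normalized counts and 0.00220%. Several of the other A30P values in these sets were listed at 0 in libraries of 21731 to 441177 reads.

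The log2 ratio of miR-29b-3p to miR-29a-3p was highest in A30P replicate 7, at 2.32, from 2 reads against 0. The log2 ratio of miR-29c-3p to miR-29c-5p was highest in A30P replicate 3, at 1.58, from 1 read against 0. Both values rest on the 0.5 reads added to each arm.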

How the results depend on the processing

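Of 141 results recomputed under an alternative other than leaving out a single library, 102 kept direction and side of the threshold and 10 changed direction. The calls for miR-29a-3p (fold change and share) held under every alternative run for them. Ratios with miR-29c over all libraries are set by depth in 4 A30P libraries, so their stability is not read. The count of miRNAs called was 314, but 175 in edgeR with TMM scaling, 165 in limma-voom, 174 in the authors' deposited table and 116 among miRNAs with a WT mean above the shallowest limit of 3 reads, where fewer were tested. The causes of the changes below were not tested.

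miR-29b-3p lost its call with TMM scaling (-1.53), a pseudocount of 0.1 (-3.06), edgeR with TMM (-1.09), limma-voom (-0.65), without the shallow A30P libraries (-1.90), with a total that leaves out miR-148a-3p and miR-151-3p (-1.96) and in the authors' deposited table (-0.26). miR-29c-3p lost it in edgeR (-1.54), limma-voom (-0.086), without the shallow libraries (-2.22) and in the authors' deposited table (-0.41), and miR-29b-2-5p in limma-voom (-0.42). miR-29c-5p changed direction in edgeR with TMM (0.88), limma-voom (1.53) and the authors' deposited table (1.40), and lost its call in edgeR (-0.50) and DESeq2 (-0.48) with the deposited size factors and without the shallow libraries (-0.98).

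The miR-29b-3p share lost its call without the shallow libraries (-2.11) and with the reduced total (-0.82). The log2 ratio of miR-29b-3p to miR-29a-3p did so without the shallow libraries (1.57) and with 0.1 reads added (2.23), and that of miR-29c-3p to miR-29c-5p without the shallow libraries (-1.37), with 0.1 reads added (-1.33) and with none added (-2.04). The ratio of miR-29b-3p to miR-29c-3p changed direction without the shallow libraries (0.20), with 0.1 reads added (0.32), with at least 10 reads (0.64) and with none added (0.49). That of miR-29b-3p to miR-29b-2-5p did so without the shallow libraries (1.70), with 0.1 reads added (1.12) and with at least 10 reads (2.46).

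Equal replicate numbers were not taken to pair the samples. Of 7 pairs 2 correlated above 0.1 (range -0.13 to 0.31), and 1 sample correlated best with its own number. Low correlations in shallow libraries cannot show that pairing was absent. With the replicate number as a block, 296 miRNAs were called, and miR-29b-3p (-2.38), its share (-2.21) and the ratio of miR-29c-3p to miR-29c-5p (-1.51) did not pass. Leaving out each library in turn gave 299 to 325 calls. Fold changes then ranged from -5.18 to -3.68 for miR-29a-3p, -3.07 to -1.85 for miR-29b-3p, -3.99 to -3.20 for miR-29c-3p, -3.90 to -3.45 for miR-29b-2-5p and -2.56 to -1.85 for miR-29c-5p. Share differences ranged from -5.16 to -4.25 for miR-29a-3p and -2.76 to -2.07 for miR-29b-3p. Log2 ratio differences ranged from -3.26 to -2.30 for miR-29a-3p over miR-29c-3p, 1.65 to 2.64 for miR-29b-3p over miR-29a-3p, -0.90 to -0.26 for miR-29b-3p over miR-29c-3p (passing without A30P replicate 8), -1.91 to -1.37 for miR-29c-3p over miR-29c-5p and -0.88 to 0.13 for miR-29b-3p over miR-29b-2-5p. With a mean of at least 10, miR-29c-5p was not tested.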
